A study of Mus musculus with 6 samples.

Results

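Chromatin accessibility was described at the loci of 10 mouse genes whose proteins act against Polycomb repression or on related histone marks: Kmt2a, Kmt2c, Kmt2d, Kmt2e, Men1, Ash2l, Dot1l, Kdm6a, Kdm6b and Nsd1. The members were the 72 ATAC-seq peaks, of 109859 in the deposited table, whose nearest annotated transcription start site belongs to 1 of these genes. All 10 genes had at least 3 peaks, and the rule that assigned peaks to them used no measured value. ATAC-seq marks open chromatin, because the Tn5 transposase inserts sequencing adapters where DNA is not packed. The cells were lineage-negative (Lin-) bone marrow cells, labelled as hematopoietic stem and progenitor cells. They came from 3 mice with a conditional knockout of Mel18 in the blood system (KO) and 3 wildtype mice (WT). Mel18, the product of Pcgf2, is a Polycomb protein found in PRC1, a repressive complex. The sources used here do not give the Cre driver, the deleted exons, the strain, the age or the sex of the mice.

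Polycomb repressive complexes mark silent genes with histone H3 lysine 27 trimethylation and histone H2A ubiquitination. Trithorax-group proteins act against them. The KMT2 enzymes, with shared cofactors such as ASH2L, methylate histone H3 lysine 4 at active promoters and enhancers, and the KDM6 demethylases remove methyl groups from lysine 27. In blood, KMT2A, the menin protein encoded by Men1 and DOT1L are best known from leukemias with KMT2A fusions, in which menin and DOT1L are required. KMT2A itself maintains stem cells through targets such as the Hox genes. KMT2C, KMT2D and KDM6A belong to the same enhancer complexes and are recurrently mutated in blood cancers.

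No member peak differed between KO and WT cells at an adjusted p under 0.05, and neither did any of the 109859 peaks (0.0% called; edgeR quasi-likelihood test, Benjamini-Hochberg adjustment over all peaks). DESeq2's Wald test also called 0 peaks, but it gave no adjusted p for most of the member peaks described below. The smallest adjusted p of a member peak was 0.126. In the authors' deposited table the smallest adjusted p of a member peak was 0.418. With an unadjusted p below 0.05, 5 member peaks had lower and 2 had higher values in KO cells. The share of all peaks at that level was 5.97% lower and 3.1% higher, so that 9.72% of member peaks stand beside 9.07% of all peaks. The 5 on the lower side were the start-site peaks of Kdm6a and Dot1l, a pair of strong peaks at Nsd1 and a weak intronic peak of Kdm6a. All but the last were in the strongest of 10 classes of peaks by level. In that class 4 of 11 member peaks, and 4262 of all 10986 peaks, were lower at an unadjusted p below 0.05. On the higher side were a peak upstream of Ash2l and a weak peak upstream of Nsd1. Standard errors of the log2 fold changes ran from 0.0636 at the strongest member peak to 0.567 at a weak one.

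Libraries held 14487908 to 16709921 peak reads in KO and 12000808 to 13769335 in WT cells. The table numbers the libraries within a genotype without tying them to a mouse, and those numbers are used below. WT library 3 stood apart, with a mean Spearman correlation of 0.859 to its own group, against 0.894 and 0.896 for the other WT libraries and 0.939 to 0.949 for the KO libraries. Values without it are given beside many of the results. Strong peaks also had lower values in KO cells as a class. Of 10 level classes of all peaks, the strongest had a median log2 fold change of -0.21 and the weakest of 0.17, and promoter peaks had a median of -0.15. Results for most strong peaks are therefore also given with trended normalization, in which a smooth curve takes out what depends on level alone. The curve takes out any difference between the genotypes that runs with level, whatever its source. The source of that difference was not tested. All 8 progenitor marker genes had promoter peaks, with summed levels of 207.0 to 217.0 CPM in KO and 212.0 to 242.0 CPM in WT libraries. Cd3e and Ncr1 (T and NK cells), Alas2 (red cell precursors), Ly6g (neutrophils) and C1qa (macrophages) had none. Other mature-cell markers did have promoter peaks, with sums of 10.7 to 18.3 CPM in KO and 14.5 to 29.8 CPM in WT libraries for T and NK cells. Neutrophil markers summed to 65.4 to 69.6 CPM in KO and 32.3 to 85.2 CPM in WT libraries. The erythroid sums were 39.4 to 65.0 CPM in KO and 38.6 to 97.7 CPM in WT libraries, and those of macrophages 56.3 to 65.2 CPM in KO and 29.6 to 79.3 CPM in WT libraries. Of 4 stromal and endothelial markers, Cdh5, Pecam1 and Cxcl12 had no promoter peak and 1 did, with 8.3 to 10.3 CPM in KO and 7.53 to 10.7 CPM in WT libraries. The part of such cells in the results was not tested. In bulk samples a change in the share of open cells and a change in accessibility per cell cannot be told apart.

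The promoters of 6 of the 10 genes matched RefSeq sequences of GRCm38.p6, the assembly called mm10. The 250 bases upstream of the start are shown for 5 of them, because these lie under the start-site peaks that carry the results. The Kdm6a and Dot1l promoters (chrX:18162325-18162574 and chr10:80754953-80755202, plus strand) lie under the 2 member peaks with the smallest p. The Kmt2c promoter (chr5:25498784-25499033, minus strand) is split between a peak assigned to Kmt2c and one assigned to a neighbour, each of which covers a stretch of it. Kmt2a (chr9:44881290-44881539, minus strand) and Men1 (chr19:6334729-6334978, plus strand) are shown as strong promoters whose groups overlapped. Capitals mark matches, on both strands, to 6 motifs, which are the CCAAT box, the ETS core GGAAGT, the GC box GGGCGG, the palindromic NRF1 motif, the AP-1 motif TGANTCA and the TATA box TATAAA.
Kdm6a: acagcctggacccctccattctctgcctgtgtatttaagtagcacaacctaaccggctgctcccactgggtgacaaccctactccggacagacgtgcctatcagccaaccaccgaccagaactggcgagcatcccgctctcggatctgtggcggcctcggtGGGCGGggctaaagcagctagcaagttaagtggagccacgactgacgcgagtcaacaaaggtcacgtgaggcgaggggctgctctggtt
Dot1l: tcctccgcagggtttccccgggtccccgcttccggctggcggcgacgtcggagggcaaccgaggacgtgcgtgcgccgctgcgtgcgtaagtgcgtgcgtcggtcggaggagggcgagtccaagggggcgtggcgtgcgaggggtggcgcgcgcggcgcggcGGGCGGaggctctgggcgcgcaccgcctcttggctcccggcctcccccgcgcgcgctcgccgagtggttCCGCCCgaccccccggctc
Kmt2c: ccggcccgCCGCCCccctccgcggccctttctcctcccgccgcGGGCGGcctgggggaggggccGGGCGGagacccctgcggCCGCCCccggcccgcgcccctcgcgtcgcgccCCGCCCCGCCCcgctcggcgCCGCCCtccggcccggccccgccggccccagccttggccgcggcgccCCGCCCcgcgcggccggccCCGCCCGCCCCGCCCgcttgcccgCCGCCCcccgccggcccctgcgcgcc
Kmt2a: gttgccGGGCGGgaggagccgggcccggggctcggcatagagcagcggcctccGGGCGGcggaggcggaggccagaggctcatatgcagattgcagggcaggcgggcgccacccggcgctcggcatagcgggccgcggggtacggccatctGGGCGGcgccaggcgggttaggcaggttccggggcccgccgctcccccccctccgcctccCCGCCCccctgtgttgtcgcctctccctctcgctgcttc
Men1: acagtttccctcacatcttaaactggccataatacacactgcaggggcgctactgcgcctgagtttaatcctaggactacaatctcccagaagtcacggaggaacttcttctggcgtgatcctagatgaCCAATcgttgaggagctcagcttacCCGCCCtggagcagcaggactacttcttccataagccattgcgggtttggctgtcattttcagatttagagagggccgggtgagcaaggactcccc
GGGCGG, the core that Sp and KLF factors can bind, was the most frequent match, with 12 in Kmt2c, 4 in Kmt2a, 2 in Dot1l and 1 each in Kdm6a and Men1. Matches overlapped each other 3 times, all in Kmt2c. Promoter windows of this length that a peak overlaps, in part or in whole, are called windows under a peak here. Of these 13050 windows, 58.7% held GGGCGG, against 32.7% of all 32851. Men1 alone among the 5 held CCAAT, which 35.3% of the windows under a peak hold. None of the other 4 motifs was found in these windows, where they occur in 24.8% (GGAAGT), 1.7% (the NRF1 motif), 4.28% (the AP-1 motif) and 5.65% (the TATA box) of windows under a peak. The promoters differed in CG dinucleotides, with 15 in Kdm6a, 44 in Dot1l, 48 in Kmt2c, 29 in Kmt2a and 8 in Men1, beside a median of 16 in windows under a peak. A match is a string of letters and does not show that a factor binds there.

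Kdm6a encodes the X-linked H3K27 demethylase UTX, a subunit of the KMT2C and KMT2D complexes. Its start-site peak on chromosome X, from 18162175 to 18162867, covers the start site, the 5' untranslated region and the start exon, and was the strongest member peak. It held 128.0, 126.0 and 129.0 CPM in the KO libraries, against 163.0, 150.0 and 149.0 CPM in the WT libraries. The groups did not overlap, with WT library 1 the highest. The log2 fold change was -0.27 with a standard error of 0.0636 (adjusted p = 0.126), a KO level 0.828 times that of WT. The peak passed the threshold without WT library 3, at -0.29 (adjusted p = 0.0224). With trended normalization the difference was 0.06 (adjusted p = 0.929), and with both changes 0.04 (adjusted p = 0.897), beside a median of -0.21 over all peaks of its level class before that step.

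The other 9 Kdm6a peaks were weak, at 1.86 to 8.71 CPM in KO and 1.98 to 9.26 CPM in WT cells. An intronic peak 15.3 kb downstream of the start, on chromosome X from 18177908 to 18178081, had the lowest log2 fold change of all member peaks. It held 1.8, 1.91 and 2.12 CPM in KO libraries, against 3.1, 2.65 and 5.44 CPM in WT libraries. Every KO value lay below every WT value, and WT library 3 was the highest. The log2 fold change was -0.95 with a standard error of 0.332 (adjusted p = 0.369), and -1.05 with trended normalization (adjusted p = 0.876). It was -0.56 without WT library 3 (adjusted p = 0.483). Kdm6a's strongest peak away from the start, 92.3 kb downstream from 18254857 to 18255060, averaged 8.71 ± 1.26 CPM in KO and 9.26 ± 1.28 CPM in WT cells (SD, n = 3 each). A small peak 658 bp upstream of the start, from 18161957 to 18162060, averaged 4.34 ± 0.453 CPM in KO and 3.66 ± 0.473 CPM in WT cells (log2 fold change 0.24, standard error 0.251, adjusted p = 0.843). Peaks on chromosome X took 1.9% to 1.94% of reads in KO and 1.88% to 2.0% in WT libraries. The median log2 fold change of its 2475 peaks was -0.01.

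Kdm6b encodes JMJD3, the inducible H3K27 demethylase of the same family, on chromosome 11. It had 15 peaks, the most of any member, and only 5.83% of its summed CPM lay within 1 kb of the start site the table uses. That start-side peak, 542 bp upstream from 69414115 to 69414319, held 9.5, 11.2 and 10.7 CPM in KO libraries, against 12.7, 16.3 and 4.62 CPM in WT libraries. The WT libraries spread around the KO ones, and the log2 fold change was -0.09 with a standard error of 0.368 (adjusted p = 0.973). It was -0.46 without WT library 3 (adjusted p = 0.203) and 0.28 without WT library 2. The strongest peak, over 5' untranslated exon and intron sequence 4.93 kb downstream from 69408579 to 69408910, held 43.2, 39.0 and 34.3 CPM in KO libraries, against 36.7, 38.6 and 35.6 CPM in WT libraries. The groups overlapped (log2 fold change 0.07, standard error 0.118, adjusted p = 0.917), and the value was 0.24 with trended normalization (adjusted p = 0.876).

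The intronic Kdm6b peak 4.09 kb downstream, from 69409391 to 69409783, had the smallest p of the gene. It held 28.4, 30.2 and 25.7 CPM in KO libraries, against 41.0, 40.8 and 26.2 CPM in WT libraries. WT library 3 lay among the KO values, apart from the other WT libraries. The log2 fold change was -0.36 with a standard error of 0.168 (adjusted p = 0.564), and -0.20 with trended normalization (adjusted p = 0.908). Without WT library 3 it was -0.54 and passed (adjusted p = 0.00521), and with trended normalization as well it was -0.35 and did not (adjusted p = 0.229). Upstream, the peak 59.1 kb away, within an intron of Dnah2 from 69472743 to 69472898, averaged 1.97 ± 0.795 CPM in KO and 1.0 ± 0.627 CPM in WT cells (SD, n = 3 each), which is 0.99 on the log2 scale (standard error 0.518; adjusted p = 0.622). WT library 3, at 0.298 CPM, was the lowest, and the value was 0.54 without it, 0.64 without KO library 2 and 1.39 without WT library 1. Of the 15 Kdm6b peaks, 9 had higher and 6 lower values in KO cells, between -0.44 and 0.99, and none passed. The RefSeq span of the gene reaches 69420367, and 4 of the 8 Kdm6b peaks that the table puts outside the gene lie within that span. A peak inside the Kdm6b span that the table assigns to Tmem88 is described below.

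**Figure D1:**
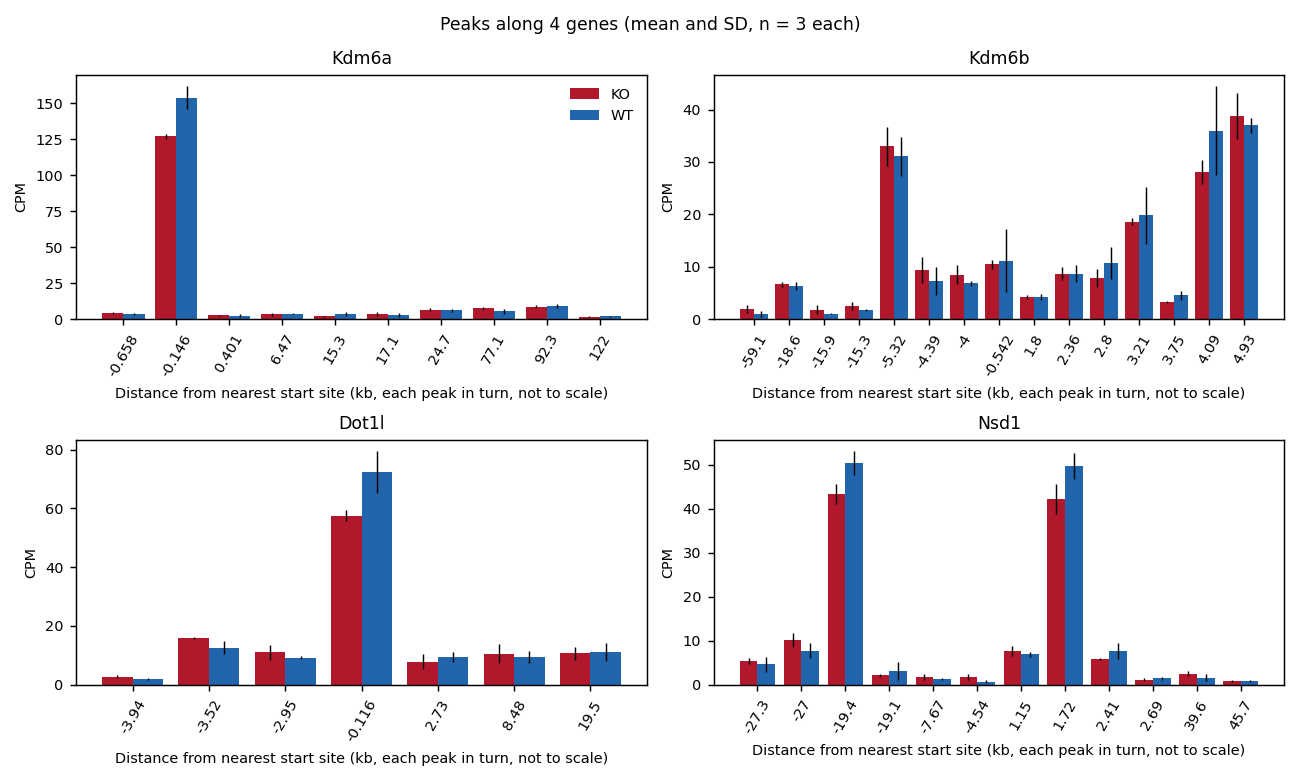
Mean CPM and SD (n = 3 each) of every peak of Kdm6a, Kdm6b, Dot1l and Nsd1, in KO (red, left) and WT (blue, right), ordered by distance from the nearest start site in kb, negative upstream. Kdm6a and Dot1l each have 1 dominant peak at the start, while Kdm6b has several strong peaks and Nsd1 has 2, all away from it.

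Kmt2a, on chromosome 9, encodes the founding mammalian trithorax methyltransferase MLL1. Its start-site peak from 44881238 to 44881658, over the start site and an exon, held 43.5, 44.3 and 37.0 CPM in KO libraries, against 43.7, 49.2 and 41.8 CPM in WT libraries. The groups overlapped, and the log2 fold change was -0.11 with a standard error of 0.114 (adjusted p = 0.846), or 0.08 with trended normalization. The peak 930 bp upstream, from 44882136 to 44882271, averaged 3.91 ± 0.176 CPM in KO and 4.16 ± 0.312 CPM in WT cells (SD, n = 3 each). Further upstream, at 1.5 kb, a peak from 44882693 to 44882852 averaged 6.29 ± 1.44 CPM in KO and 7.57 ± 0.227 CPM in WT cells, with every KO library below every WT library (log2 fold change -0.26, standard error 0.239, adjusted p = 0.813). Both intronic Kmt2a peaks had higher values in KO cells at very low levels. The one from 44867781 to 44867923 held 29, 22 and 14 reads in KO libraries, against 6, 14 and 7 reads in WT libraries, and the groups overlapped (log2 fold change 0.85, standard error 0.465, adjusted p = 0.644).

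Kmt2c and Kmt2d encode MLL3 and MLL4, the enhancer H3K4 methyltransferases that share the KDM6A-containing complex. The Kmt2c peak over the start site, on chromosome 5 from 25498694 to 25498908, held 6.95, 7.78 and 8.68 CPM in KO libraries, against 10.5, 8.47 and 8.43 CPM in WT libraries. Only KO library 3 reached into the WT values (log2 fold change -0.23, standard error 0.216, adjusted p = 0.825). The intronic Kmt2c peak from 25475778 to 25476127 averaged 8.57 ± 0.545 CPM in KO and 6.9 ± 0.914 CPM in WT cells (SD, n = 3 each). Its groups did not overlap, with the KO libraries above (log2 fold change 0.32, standard error 0.216, adjusted p = 0.737). At Kmt2d, on chromosome 15, all 4 peaks had log2 fold changes between -0.07 and 0.00. Its strongest peak, 1.05 kb upstream of the start the table uses, from 98872133 to 98872384, held 18.8, 21.7 and 18.1 CPM in KO libraries, against 20.5, 19.1 and 21.4 CPM in WT libraries (log2 fold change -0.06, standard error 0.156, adjusted p = 0.952). Kmt2d peaks within 1 kb of the start averaged 6.74 ± 0.336 and 1.35 ± 0.189 CPM in KO cells, against 6.82 ± 2.25 and 1.34 ± 0.194 CPM in WT cells (SD, n = 3 each). All 3 upstream Kmt2d peaks lie inside the RefSeq span of the gene, which reaches 98874077.

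Kmt2e encodes MLL5, a family member that binds methylated H3K4 and is needed for normal stem cell function in mice. Its 7 assigned peaks were all weak and away from the start, with log2 fold changes between -0.14 and 0.41. The strongest, within an intron of Srpk2 on chromosome 5 from 23521685 to 23522097, held 8.4, 7.92 and 9.58 CPM in KO libraries, against 8.32, 9.15 and 4.47 CPM in WT libraries. WT library 3 was the low one (log2 fold change 0.24, standard error 0.272, adjusted p = 0.859), and without it the value was -0.01. The Kmt2e peak with the smallest p, intronic from 23483871 to 23484091, averaged 4.79 ± 0.579 CPM in KO and 3.69 ± 1.13 CPM in WT cells (SD, n = 3 each), which is 0.37 on the log2 scale (standard error 0.285; adjusted p = 0.77). WT library 1, at 2.39 CPM, was the lowest, and the value was 0.11 without it and 0.51 without WT library 3.

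Men1 and Ash2l encode cofactors of the methyltransferases. Menin, the Men1 product, tethers KMT2A to chromatin, and ASH2L is part of the core that all KMT2 enzymes of this complex family need for activity. The Men1 start-site peak, on chromosome 19 from 6334720 to 6335104, held 41.4, 38.1 and 27.7 CPM in KO libraries, against 29.4, 35.2 and 31.6 CPM in WT libraries. KO library 3 was the lowest of all and the other KO libraries were the highest (log2 fold change 0.16, standard error 0.153, adjusted p = 0.831). With trended normalization the difference was 0.31 (adjusted p = 0.876). Its upstream peak at 3.16 kb, from 6331724 to 6331910, held 5.33, 6.4 and 6.43 CPM in KO libraries, against 4.43, 4.53 and 4.32 CPM in WT libraries. All KO libraries lay above all WT libraries, as at the neighbouring peak from 6331283 to 6331379, at log2 fold changes of 0.45 and 0.67, with standard errors of 0.229 and 0.358 and adjusted p of 0.609 and 0.634.

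Ash2l, on chromosome 8, had 4 peaks, all within 1 kb of 1 of its annotated start sites. The main one, from 25840670 to 25841220, held 24.4, 26.7 and 23.3 CPM in KO libraries, against 18.1, 19.7 and 24.2 CPM in WT libraries. WT library 3 lay within the KO range and the other WT libraries below it (log2 fold change 0.26, standard error 0.157, adjusted p = 0.68). The difference was 0.40 without WT library 3 (adjusted p = 0.122), 0.36 with trended normalization (adjusted p = 0.876) and 0.54 with both (adjusted p = 0.112). The neighbouring peak from 25840447 to 25840615 held 4.06, 3.03 and 4.31 CPM in KO libraries, against 2.57, 2.99 and 7.31 CPM in WT libraries, and its log2 fold change turned from -0.19 with all libraries to 0.45 without WT library 3. The peak 812 bp upstream of another start, from 25848368 to 25848644, held 8.23, 7.98 and 6.88 CPM in KO libraries, against 4.16, 6.5 and 5.22 CPM in WT libraries. The KO libraries were all higher, at a log2 fold change of 0.54 with a standard error of 0.241 (adjusted p = 0.532) and 0.49 with trended normalization. Among all promoter peaks, KO libraries lay wholly above WT in 3.63% and wholly below in 23.6%, while 1.11% were on the higher and 19.1% on the lower side with an unadjusted p below 0.05.

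Dot1l encodes the H3 lysine 79 methyltransferase, a partner of KMT2A fusion proteins. Its start-site peak, on chromosome 10 from 80754897 to 80755282, held 59.0, 55.3 and 58.2 CPM in KO libraries, against 78.2, 64.5 and 74.3 CPM in WT libraries. The groups did not overlap, at a log2 fold change of -0.33 with a standard error of 0.0936 (adjusted p = 0.225), a KO level 0.795 times that of WT. Without WT library 3 it was -0.30 (adjusted p = 0.0729), and with trended normalization -0.09 (adjusted p = 0.93). Upstream, 3 weaker peaks had higher values in KO cells, none past the threshold. The strongest of them, 3.52 kb upstream from 80751517 to 80751850, held 15.8 ± 0.337 CPM in KO and 12.6 ± 2.27 CPM in WT cells (SD, n = 3 each), without overlap (log2 fold change 0.32, standard error 0.192, adjusted p = 0.678).

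Nsd1, on chromosome 13, encodes a methyltransferase of H3 lysine 36, where methylation hinders PRC2. No Nsd1 peak lay within 1 kb of its start site. A pair of strong peaks had lower values in KO cells. The one 19.4 kb upstream, from 55190119 to 55190615, held 45.6, 43.2 and 41.0 CPM in KO libraries, against 49.5, 48.3 and 53.4 CPM in WT libraries. The intronic one 1.72 kb downstream, from 55211103 to 55211903, held 46.2, 41.3 and 39.5 CPM in KO libraries, against 53.0, 48.3 and 47.7 CPM in WT libraries. In both, every KO library was below every WT library, at log2 fold changes of -0.22 and -0.23, with standard errors of 0.0991 and 0.105 and adjusted p of 0.537 and 0.54, and of -0.02 and -0.03 with trended normalization. The weak peak 4.54 kb upstream, from 55205179 to 55205314, had the highest log2 fold change of all members, with 17, 24 and 37 reads in KO libraries against 9, 11 and 4 reads in WT libraries. The groups did not overlap (log2 fold change 1.29, standard error 0.503, adjusted p = 0.446), and the value was 0.91 without WT library 3.

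**Figure D2:**
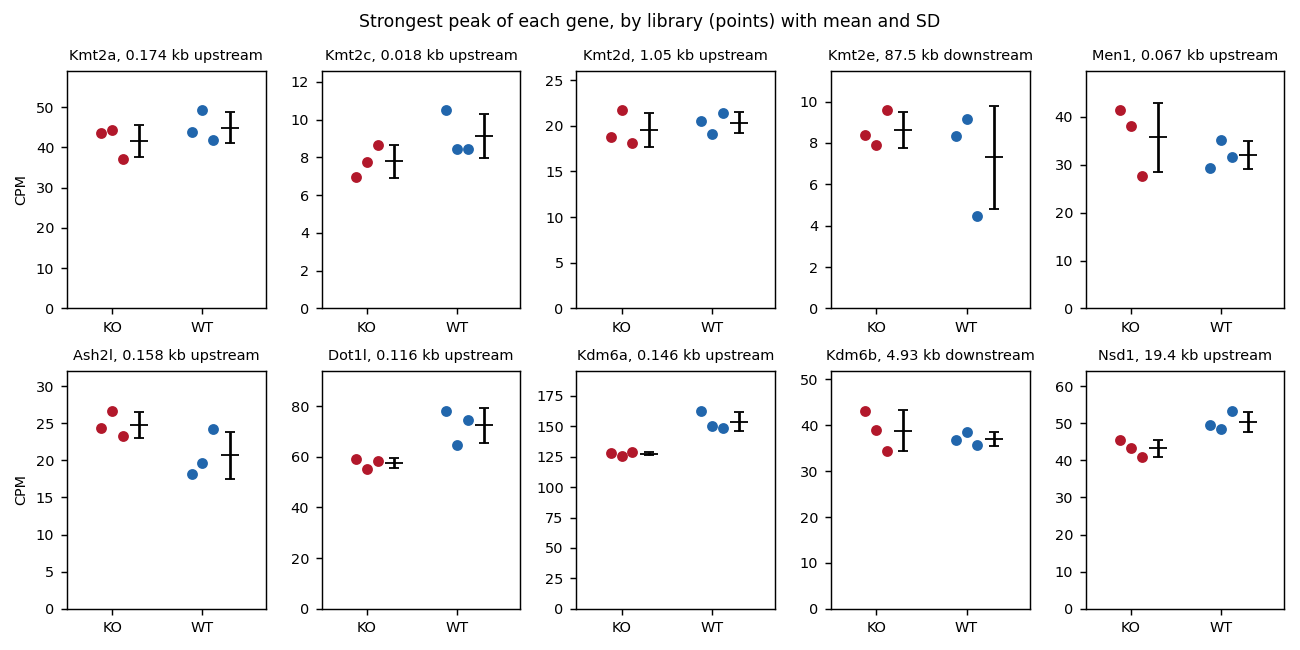
CPM of the strongest peak of each gene in the 3 KO (red) and 3 WT (blue) libraries, with mean and SD beside the points. The groups are apart at Kdm6a, Dot1l and Nsd1, with KO below WT, and overlap at the other 7 genes. These 3 peaks belong to the strongest level class, where KO lies wholly below WT at 42.3% of all peaks.

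Among the 72 peaks as a list, 43 had higher and 29 lower values in KO cells, with a median log2 fold change of 0.08, beside 0.02 over all peaks. The KO libraries lay all above the WT libraries at 8 member peaks and all below at 7, which is 11.1% and 9.72%, beside 7.63% and 8.01% of all peaks. The 16 promoter peaks had a median of -0.01, beside -0.15 over all promoter peaks, and the 56 other peaks had a median of 0.10, beside 0.06. In the strongest level class the 11 member peaks had a median of -0.11, beside -0.21 over all peaks of that class. The KO libraries lay all below the WT libraries at 36.4% of these 11, beside 42.3% of all peaks of that class. With trended normalization the medians were 0.07 over the member peaks and -0.02 over all peaks, with 1 member peak on the lower and 1 on the higher side below an unadjusted p of 0.05 (3.38% and 2.26% of all peaks). These were the intronic Kdm6a peak and the weak upstream Nsd1 peak. Without WT library 3, 2.74% of all peaks passed the adjusted threshold, and 2 member peaks did, those of Kdm6a and Kdm6b described above. Both are in the strongest level class, where 2 of 11 member peaks and 2327 of all 10986 peaks passed without that library.

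**Figure D3:**
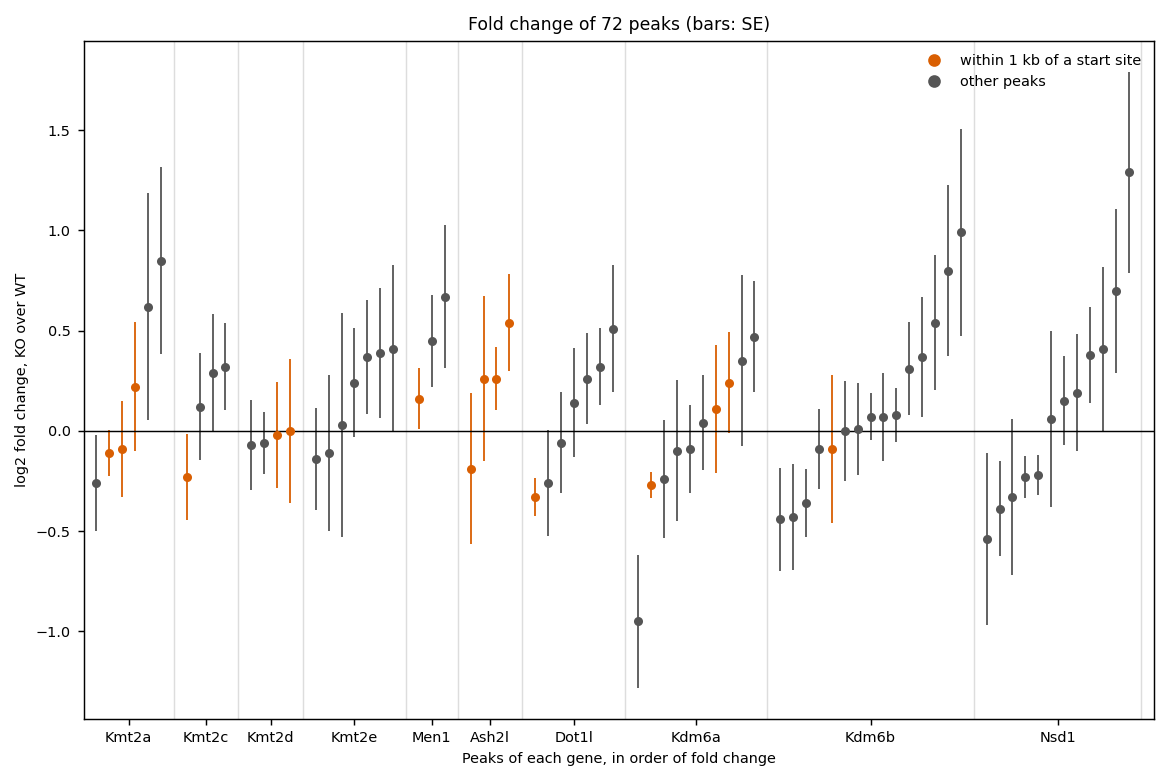
Log2 fold change, KO over WT, with SE, for the 72 member peaks, grouped by gene and ordered by value, with peaks within 1 kb of a start site in orange. Values run from -0.95 at a Kdm6a intron to 1.29 upstream of Nsd1, and the shortest bars belong to the start-site peaks of Kdm6a and Dot1l.

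**Figure D4:**
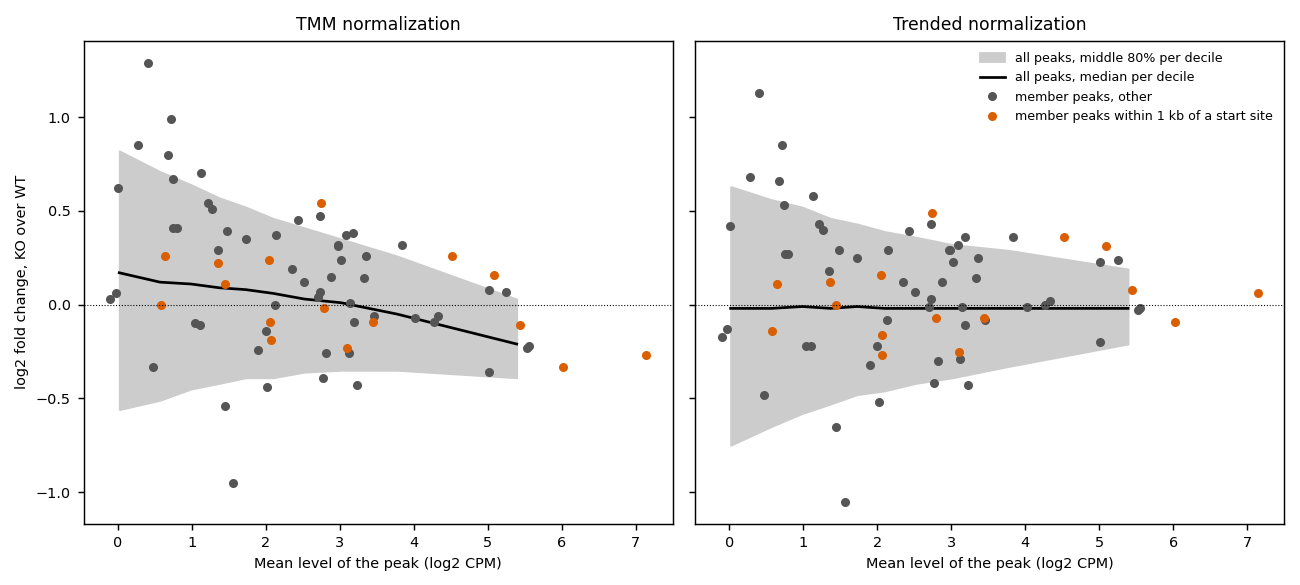
Log2 fold change, KO over WT, against the mean level of each peak in log2 CPM, before (left) and after (right) trended normalization; the line is the median and the grey band the middle 80% of all peaks per level class. The median line drops from 0.17 to -0.21 from weak to strong peaks on the left and stays at -0.02 to -0.01 on the right, where the Kdm6a start-site peak, the point farthest right, sits at 0.06.

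The nearest-start rule left some start-site peaks of these genes with their neighbours, and such peaks were added after values had been seen. In all, 15 peaks lie within a member gene, or within 1 kb of its start, by the table's own annotation, and are assigned to another gene. Their median log2 fold change was -0.19, with 1 on the higher and 4 on the lower side below an unadjusted p of 0.05. Of all peaks 3.1% were on the higher and 5.97% on the lower side, of promoter peaks 1.11% and 19.1%, and the strongest level class had a median of -0.21. The peak over the Kmt2e start site and its 5' untranslated region, on chromosome 5 from 23434119 to 23434572, is assigned to 5031425E22Rik, transcribed from the same region. It held 33.8, 40.0 and 37.4 CPM in KO libraries, against 49.6, 47.3 and 41.3 CPM in WT libraries, without overlap (log2 fold change -0.31, standard error 0.115, adjusted p = 0.402). It passed without WT library 3, at -0.38 (adjusted p = 0.037), and was -0.13 with trended normalization (adjusted p = 0.917). Beside it, the peak from 23432674 to 23433604 averaged 164.0 ± 9.38 CPM in KO and 187.0 ± 14.8 CPM in WT cells (SD, n = 3 each), which is -0.19 on the log2 scale (standard error 0.0713; adjusted p = 0.429). Its level exceeded that of every peak assigned to a member, and with trended normalization its direction turned, at 0.17. The wide peak beside the Kmt2c start, from 25498940 to 25499970 and assigned to 4831440E17Rik, held 76.8, 75.3 and 72.1 CPM in KO libraries, against 90.0, 84.8 and 95.1 CPM in WT libraries. The groups did not overlap (log2 fold change -0.27, standard error 0.078, adjusted p = 0.243), and the value was 0.00 with trended normalization.

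Within Kdm6b, the peak over exon and intron sequence from 69401254 to 69401583, assigned to Tmem88, held 20.4, 21.9 and 20.3 CPM in KO libraries, against 27.4, 30.9 and 29.9 CPM in WT libraries. Every KO library was lower, at a log2 fold change of -0.49 with a standard error of 0.134 (adjusted p = 0.2), which was -0.38 with trended normalization (adjusted p = 0.876) and -0.48 without WT library 3 (adjusted p = 0.0342). In the 3' untranslated region of Men1, the peak from 6340660 to 6340843, assigned to Map4k2, held 6.03, 6.2 and 4.5 CPM in KO libraries, against 2.92, 3.76 and 3.43 CPM in WT libraries. Here every KO library was higher (log2 fold change 0.72, standard error 0.255, adjusted p = 0.375; 0.65 with trended normalization).

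The reads of all assigned peaks were also summed per gene and fitted over all 19015 genes, again with 0.0% called. Of the members, 7 had log2 fold changes above 0 and 3 below, beside 9770 and 9245 of all gene sums. Below an unadjusted p of 0.05, 1 member sum was on the higher and 0 on the lower side, beside 4.38% and 6.72% of all gene sums. These gene sums have their own scaling, so their CPM are not sums of the values above. The Ash2l sum was 39.5, 40.2 and 37.2 CPM in KO libraries, against 24.4, 30.3 and 37.0 CPM in WT libraries. The KO libraries were all higher, although WT library 3 came close (log2 fold change 0.35, standard error 0.151, adjusted p = 0.447). Without that library the sum passed at 0.51 (adjusted p = 0.0259), which trended normalization brought to 0.49 (adjusted p = 0.0628). Leaving out that library also took the single peaks called from 0.0% to 2.74% of all peaks. The share of all gene sums called without it is not given here, so this pass has no direct comparison. All 4 Ash2l peaks are promoter peaks, and on the scaling of the single peaks their sums overlapped between the groups. They were 38.7, 39.0 and 35.8 CPM in KO libraries, against 25.5, 30.7 and 38.2 CPM in WT libraries. Kmt2e sums were 26.8, 24.8 and 24.6 CPM in KO libraries, against 21.0, 22.9 and 19.0 CPM in WT libraries, again all higher in KO (log2 fold change 0.28, standard error 0.13, adjusted p = 0.46). They leave out the start-site peaks assigned to 5031425E22Rik. The Kdm6a sum was 172.0, 170.0 and 176.0 CPM in KO libraries, against 189.0, 186.0 and 188.0 CPM in WT libraries, all lower in KO (log2 fold change -0.12, standard error 0.0632, adjusted p = 0.516), and 81.5% of it came from within 1 kb of the start. Among all gene sums, 8.5% had every KO library above and 10.5% every KO library below the WT libraries. The exact two-sided permutation test gave p = 0.1 for these 3 sums, the smallest p that 3 against 3 libraries allow. Fully separated groups always give that value, so the test adds nothing to the separation stated above. For sums of promoter peaks alone, the exact two-sided permutation test gave p = 0.1 at Kdm6a and Dot1l, both wholly lower in KO. At the other genes with promoter peaks, the exact two-sided permutation test gave p = 0.2 (Ash2l) to p = 0.9 (Kmt2d). Kmt2e and Nsd1 had no promoter peak.

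For Men1 the sum gave a log2 fold change of 0.30 with overlapping libraries, and for Kmt2c 0.17, with standard errors of 0.138 and 0.132 and adjusted p of 0.46 and 0.663. Kmt2a, Kmt2d, Dot1l, Kdm6b and Nsd1 had values of 0.00, 0.03, -0.03, 0.06 and -0.04, with standard errors of 0.0734 to 0.115. Per kb of peak the order of mean levels was Kdm6a (71.8 CPM per kb), Dot1l (64.4), Kmt2d (61.2), Men1 (60.9), Kmt2a (56.6), Kdm6b (53.7), Nsd1 (44.3), Ash2l (31.8), Kmt2c (26.2) and Kmt2e (17.4). Neighbours in this order overlapped over the 6 libraries except at 2 steps, between Nsd1 and Ash2l and between Kmt2c and Kmt2e. The sums of Kmt2c and Kmt2e leave out the start-site peaks assigned to other genes.

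**Figure D5:**
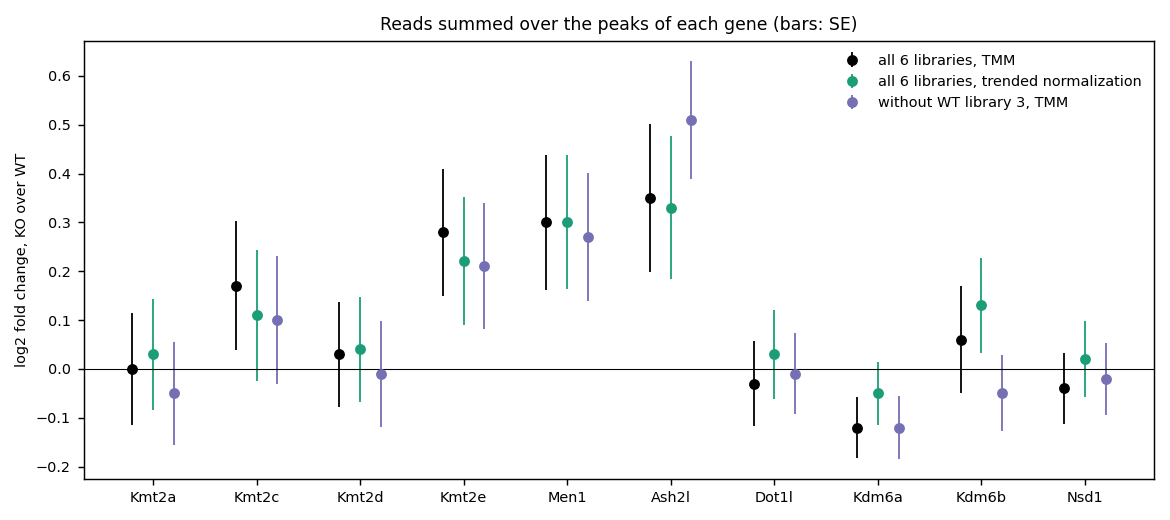
Log2 fold change, KO over WT, with SE, of the reads summed over the peaks of each gene, for all 6 libraries (black), with trended normalization (green) and without WT library 3 (purple). Ash2l has the highest value under all 3 settings, from 0.33 to 0.51, and Kdm6a the lowest, from -0.12 to -0.05.

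Other genes of the pathway were described as a list of 30, of which 27 had an assigned peak (192 peaks), with Nsd2 and Nsd3 found under older symbols. None of their peaks passed with all 6 libraries, and 5 of 192 did without WT library 3, beside 2.74% of all peaks. Of these, 4 were among their 58 promoter peaks, where 1801 of all 21892 promoter peaks passed without that library. Below an unadjusted p of 0.05 there were 21 with lower and 5 with higher values in KO cells, beside 5.97% and 3.1% of all peaks, and the median log2 fold change was -0.02. Their 58 promoter peaks had a median of -0.17, beside -0.15 over all promoter peaks, with 18 lower and 0 higher at that level, beside 19.1% and 1.11% of all promoter peaks. The smallest p on the lower side belonged to the promoters of Cxxc1, a CpG-binding subunit of the SETD1 complexes, Kdm5c, an X-linked H3K4 demethylase, and Aff4, a scaffold of the super elongation complex. The Cxxc1 promoter averaged 110.0 ± 4.52 CPM in KO and 146.0 ± 19.7 CPM in WT cells (SD, n = 3 each), which is -0.41 on the log2 scale (standard error 0.0897; adjusted p = 0.106). Kdm5c and Aff4 had log2 fold changes of -0.31 and -0.39, with standard errors of 0.0834 and 0.108 and adjusted p of 0.195 and 0.205. With trended normalization these 3 values were -0.09, -0.07 and -0.19. The Cxxc1 and Aff4 promoters passed without WT library 3, at -0.45 and -0.40 (adjusted p = 0.00239 and 0.0255), and Kdm5c did not, at -0.27 (adjusted p = 0.0901). With trended normalization as well, none of the 192 peaks passed.

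On the higher side, the 3 smallest p belonged to peaks away from start sites. A pair of them was assigned to Wdr5, which encodes a core subunit of the KMT2 complexes, and 1 to Aff1, a common KMT2A fusion partner. The Wdr5 peaks averaged 4.26 ± 0.498 and 6.5 ± 1.39 CPM in KO cells, against 2.46 ± 0.263 and 3.81 ± 0.788 CPM in WT cells (SD, n = 3 each). Their log2 fold changes were 0.79 ± 0.266 and 0.77 ± 0.269 (SE; adjusted p = 0.341 and 0.366), and 0.70 and 0.72 with trended normalization. The Aff1 peak had a log2 fold change of 0.90 with a standard error of 0.333 (adjusted p = 0.412). All 3, chosen for their p, had KO libraries wholly above WT libraries. The same held for 7.81% of the 192 peaks, beside 7.63% of all peaks. KO libraries lay wholly below WT libraries at 15.6% of the 192 peaks, beside 8.01% of all peaks. At their 58 promoter peaks this share was 36.2%, beside 23.6% of all promoter peaks. Those 58 had a median level of 13.3 CPM, beside 9.22 CPM over all promoter peaks. The cause was not tested. Of the 27 gene sums of this list, 6 were above 0 and 21 below, beside 9770 and 9245 of all 19015. Their median was -0.07, beside 0.01 over all genes, and their smallest adjusted p was 0.372. Below an unadjusted p of 0.05, 1 was on the higher and 3 on the lower side, beside 4.38% and 6.72% of all gene sums.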

How the data were processed

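The study measured chromatin accessibility by ATAC-seq in lineage-negative bone marrow cells of 3 KO and 3 WT mice, grouped by the genotype in the labels. Build mm10 is named in the submitters' processing notes, which also list, with no roles, MACS2 2.1.1, Picard, Bowtie2 1.2.2, Trimmomatic 0.40, MultiQC 0.11.5 and FastQC, versions as listed. No counting tool, Tn5 offset shift or duplicate step is stated there, and each could move the counts. Per the file headers, the deposited table holds raw counts per peak, the nearest start site and the authors' log2 fold change and p-value, used only where the deposited table is named. Not used were 12 further per-library columns (log2 CPM and peak calls). The labels give separate mice, so libraries are biological replicates.

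In R 4.3.3, the quasi-likelihood test of edgeR 4.0.16 was applied to the counts (filterByExpr, TMM, robust), adjusted over all peaks, at a threshold of 0.05, and again on counts summed per gene. Adjusted p-values without another name come from it. CPM use TMM library sizes, and each standard error is the absolute log2 fold change over the root of its F value. A promoter peak has its centre within 1 kb of a start site by the table's distance. Level classes are 10 deciles of mean log2 CPM. For trended normalization, loess fits (span 0.3, prior count 2) of every library to the mean level served as offsets. The test was checked on simulated data. Members, gene lists and tests were chosen with earlier results of these data known. The named peaks were, per gene, up to 2 promoter peaks, the strongest other peak and the one with the smallest p, and, in either direction, the 5 of smallest p among all members; of the pathway list, the 3 of smallest p in either direction. Alternatives were DESeq2 1.42.0 (Wald test, and its size factors), library sizes alone, trended normalization, no filter and leaving out each library. Promoter sequences come from RefSeq (GRCm38.p6). Starts are counted from 1.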

Additional observations from a re-analysis of the deposited data

How the results depend on the processing

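No paired analysis was possible because the groups share no replicate numbers in the labels. The filter had removed no peak and no gene sum, so the setting with no filter repeats the main test and could not differ. Of all peaks, 0 passed in the main test, and 0 with library sizes alone, trended normalization and DESeq2's Wald test. The count was 468 with DESeq2 size factors, 114 without WT library 3 and with trended normalization, and 0 to 3013 when 1 library was left out, with 534 without WT library 2 and 3013 without WT library 3. Member peaks past the threshold numbered 0 to 2 over the libraries left out. At an unadjusted p under 0.05, member peaks counted as higher (2) were 1 with DESeq2 size factors, 6 with library sizes alone, 1 with trended normalization, 1 with DESeq2's Wald test, 6 with trended normalization without WT library 3, and 1 to 6 with 1 library left out. Those counted as lower (5) were 3 with library sizes alone, 1 with trended normalization, 3 with DESeq2's Wald test and 3 to 7 with 1 library left out, and 9 with the peaks assigned to other genes added, a choice made after seeing the data. The median of member peaks (0.08) was 0.20 with library sizes alone and 0.00 to 0.15 with 1 library left out. The other values that turned in sign, on the log2 scale, were as follows. The Kmt2d peak at 98871749 (0.00) was -0.01 with DESeq2 size factors, -0.02 with the Wald test and -0.14 with trended normalization, with or without WT library 3. Library sizes alone gave 0.01 and 0.03 for the Kmt2a peaks at 44881238 and 44882136, 0.10 and 0.06 for the Kmt2d peaks at 98871901 and 98872133, 0.03 for the Kdm6a peak at 18254857, 0.04 for the Kdm6b peak at 69414115 and 0.00 for the Dot1l sum. Trended normalization gave 0.08 for the Kmt2a peak at 44881238, 0.02 for the Kmt2d peak at 98872133, 0.06 for the Kdm6a start-site peak, and 0.03 and 0.02 for the Dot1l and Nsd1 sums. Without WT library 3 as well, the Kmt2a peak at 44881238 was 0.06, the Kmt2d peaks at 98871901 and 98872133 0.24 and 0.11, the Kdm6a peaks at 18162175 and 18254857 0.04 each, the Nsd1 peak at 55190119 0.05, the sums of Kmt2a and Kmt2d -0.02 and -0.00, and those of Dot1l and Nsd1 0.07 each. With peaks within 1 kb only, the Kmt2c sum was -0.04. With 1 library left out, values ran from -0.12 to 0.08 and from -0.27 to 0.25 at the Kmt2d peaks at 98871749 and 98871901, -0.01 to 0.42 at the Kmt2e peak at 23521685, -0.21 to 0.02 at the Kdm6a peak at 18254857, and -0.01 to 0.15 and -0.46 to 0.28 at the Kdm6b peaks at 69408579 and 69414115. The sums ran from -0.06 to 0.09 for Kmt2a, -0.04 to 0.09 for Kmt2d, -0.11 to 0.02 for Dot1l and -0.05 to 0.17 for Kdm6b. The cause was not tested. In all, 318 of 348 values of named peaks and 111 of 128 values of gene sums kept their direction and side of the threshold. Both counts include the values with no filter, which repeat the main ones. Most values from DESeq2's Wald test had no adjusted p and were counted here as not past the threshold. Reads per peak, 3 to 2202 in a library, limit the weak peaks.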
